A study of Mus musculus with 12 samples.

Results

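Lipid-associated macrophage markers are genes whose RNA is high in macrophages that take up lipid in fatty liver, adipose tissue and atherosclerotic plaque. The 10 genes taken here were Trem2, Tyrobp, Gpnmb, Cd63, Cd9, Cd68, Itgax, Lgals3, Spp1 and Lpl, and every probe that the platform's gene table pairs with one of these symbols was included. Of the 10 genes, 9 had a probe, which gave 11 of the 26423 probes on the array, or 9 of the 19084 genes with a named probe. Gpnmb and Cd63 had 2 probes each. Spp1, which encodes osteopontin, had no probe in that table and was dropped. The members were measured in liver from male C57BL/6 mice on 12 single-colour arrays, 3 for each of 4 groups, in a study of PTFC, a citrus flavonoid extract, in fatty liver under a high-fat diet. ND mice received normal feed (12.3% fat, 21.5% protein and 66.2% carbohydrate) for 24 weeks with saline. HFD16 and HFD24 mice received feed with 36.1% fat, 21.6% protein and 42.3% carbohydrate for 16 and 24 weeks, also with saline. That feed contained 10% lard and 2% added cholesterol together with egg yolk powder and bile salt. PTFC mice ate it for 24 weeks and, after the first 6, were also given the extract intragastrically for 18 weeks at a daily dose of 50 mg per kg. Livers came from fasted animals aged 23 to 25 weeks in HFD16 and 30 to 33 weeks in the other groups, so age and length of feeding cannot be told apart where HFD16 is compared. The study kept 24 mice, 6 per group, while 3 arrays per group were available. The labels number the arrays without saying that each was a separate animal, so a p-value here measures no more than the spread among the arrays, and that spread may be technical.

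Trem2 is a surface receptor for lipids and lipoproteins, and Tyrobp is the membrane adaptor that carries its signal through the kinase Syk. Cd68 and Cd63 are glycoproteins of lysosomes and late endosomes, Gpnmb is a transmembrane glycoprotein of the same compartments, and Cd9 is a tetraspanin related to Cd63. Itgax is the integrin chain CD11c, Lgals3 is a secreted galectin that binds glycans, and Lpl is lipoprotein lipase, which splits triglycerides of lipoproteins. In healthy liver, most macrophages are Kupffer cells, and macrophages derived from monocytes join them in fatty liver. None of the members is unique to lipid-laden macrophages, since bile duct cells, hepatocytes, dendritic cells, adipocytes or muscle also use one or another of them.

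In the RefSeq annotation of GRCm38.p6, Trem2 lies at chr17:48346401-48352276, Tyrobp at chr7:30413782-30417582 and Gpnmb at chr6:49036518-49058182. The other genes with a probe lie at chr10:128896231-128912822 for Cd63, chr6:125460266-125494760 for Cd9, chr11:69664213-69666170 for Cd68, chr7:128129526-128150657 for Itgax, chr14:47373860-47386167 for Lgals3 and chr8:68880555-68906932 for Lpl. The deposited values carry no probe coordinates, so where in the transcript each probe lies is not known here. RefSeq promoter entries were matched for 8 of the 10 genes, Tyrobp and Lpl being the others. The 250 bases before the start of the transcript in the promoter entry are shown for Gpnmb, which had the largest difference, for Trem2, the lipid receptor, and for Cd68 and Itgax, where capitals mark an AP-1 site. They are given 5′ to 3′ on the gene's strand, at chr6:49036268-49036517 (+) for Gpnmb, chr17:48346151-48346400 (+) for Trem2, chr11:69666171-69666420 (-) for Cd68 and chr7:128129300-128129549 (+) for Itgax. The Itgax entry uses a transcript start inside the gene's span given above, so its window runs past the outermost start of the gene.
Gpnmb: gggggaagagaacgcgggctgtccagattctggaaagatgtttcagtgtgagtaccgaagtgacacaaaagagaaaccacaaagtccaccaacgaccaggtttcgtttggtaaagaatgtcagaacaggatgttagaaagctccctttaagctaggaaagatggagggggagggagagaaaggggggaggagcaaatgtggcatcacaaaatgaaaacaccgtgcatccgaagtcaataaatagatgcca
Trem2: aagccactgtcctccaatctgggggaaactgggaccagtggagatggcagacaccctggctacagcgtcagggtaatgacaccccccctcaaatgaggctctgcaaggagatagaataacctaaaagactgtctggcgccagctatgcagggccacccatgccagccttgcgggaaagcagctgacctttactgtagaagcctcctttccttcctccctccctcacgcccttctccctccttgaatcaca
Cd68: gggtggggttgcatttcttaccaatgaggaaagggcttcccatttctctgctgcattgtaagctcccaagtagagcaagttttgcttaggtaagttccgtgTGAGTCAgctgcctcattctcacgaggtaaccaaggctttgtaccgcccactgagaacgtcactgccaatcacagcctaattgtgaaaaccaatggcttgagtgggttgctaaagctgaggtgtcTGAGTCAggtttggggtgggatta
Itgax: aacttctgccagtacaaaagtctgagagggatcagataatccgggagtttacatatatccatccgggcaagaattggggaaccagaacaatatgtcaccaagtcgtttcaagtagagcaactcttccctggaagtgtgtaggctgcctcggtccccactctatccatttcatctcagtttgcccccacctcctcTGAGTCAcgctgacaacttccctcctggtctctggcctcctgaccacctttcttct
The AP-1 site searched was TGACTCA on both strands. It was found in 2 of the 9 member promoters, counting 2 for Spp1, and in 4.46% of 32851 RefSeq promoters over the same length. Cd68 held it at 149 to 143 and again at 24 to 18 bases before the start, and Itgax held it at 56 to 50 bases. The E-box CACGTG was in none of the 9 and in 6.02% of all. The PU.1 site GAGGAAGT was in 1 of the 9, a promoter of Spp1, and in 2.44% of all. The motifs were chosen after these promoters had been read, and a match is a description of the letters only.

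Median intensity per array ran from 249 to 408, and arrays of one group correlated at r = 0.982 to 0.992 over 12 pairs across probes, which are not independent replicates, against 0.962 to 0.989 for 54 pairs of different groups. The deposited values are whole multiples of a step that belongs to each array, which averaged 1.31 ± 0.133 (SD, n = 3) in ND against 0.921 ± 0.213 for HFD16, 0.976 ± 0.137 for HFD24 and 0.947 ± 0.0872 for PTFC. A property of the arrays therefore moved with the normal-diet group. Hepatocyte markers summed to between 1351872 and 1593020 in linear intensity on the 12 arrays, and none of the 6 measured ones was dim on any array.

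Under 24 weeks of the high-fat diet, 7 of the 9 measured genes rose against the normal diet, Lpl fell, and Lgals3 did not pass the test. The sizes ran from 42.9-fold for the brighter Gpnmb probe to 1.68-fold for Cd9. By probe, 8 of 11 were called higher, where 8.5% of all probes were, and 1 of 11 lower, where 7.96% were. The 3 HFD24 arrays lay wholly above the 3 ND arrays for 8 of 11 probes, against 13.9% of all probes, and wholly below for 1, against 18.6%. The median log2 difference was 1.76 over the 11 member probes and -0.07 over all probes. Because the members and the lists below were picked with earlier results of these data known, such contrasts with all probes are descriptions only. Calls here and further on are limma adjusted p-values under 0.05 over all probes, differences are on the log2(intensity + 1) scale after quantile normalization with their standard error (SE), and n = 3 per group.

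**Figure D1:**
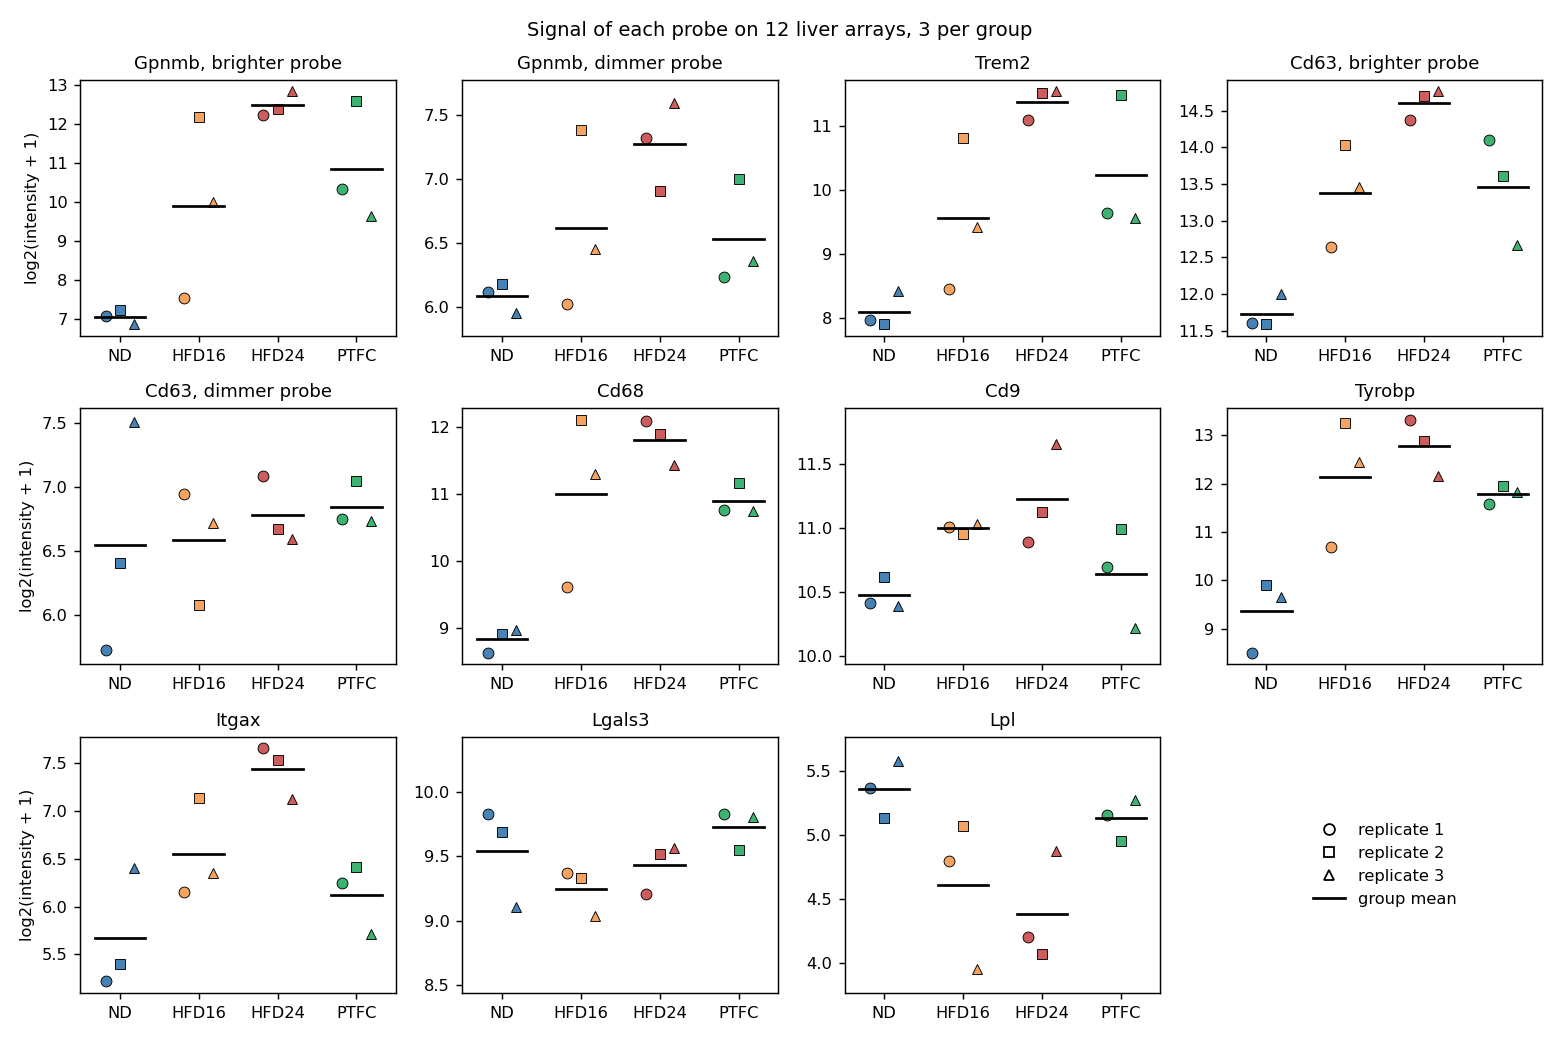
Quantile-normalized log2(intensity + 1) of each of the 11 member probes (one panel each) on the 12 arrays, by group, with 1 point per array and a line at the group mean. The HFD24 points lie above all ND points for Trem2, Tyrobp, Cd68, Itgax, Cd9, both Gpnmb probes and the brighter Cd63 probe, while the points of Lgals3 and the dimmer Cd63 probe overlap, and the HFD16 points of the brighter Gpnmb probe are spread over a 24.7-fold range.

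Trem2 read 289, 274 and 305 in deposited intensity on the ND arrays, and 2007, 2871 and 3101 on the HFD24 arrays. Every HFD24 array was thus far above every ND array, and the log2 difference was 3.29 ± 0.54, or 9.77-fold (limma adjusted p = 0.00198). Tyrobp, its adaptor, read 412, 999 and 723 in ND and 9649.9, 7269 and 4696 in HFD24. The lowest HFD24 array stood well above the highest ND array, although the ND arrays themselves spread over a 2.64-fold range, and the difference was 10.7-fold (log2 3.41 ± 0.53, limma adjusted p = 0.00153).

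Gpnmb had the largest difference among the members, on the brighter of its probes. That probe read 163, 175 and 108 in ND and 4491, 5173 and 7486 in HFD24, a difference of 42.9-fold (log2 5.42 ± 0.89, limma adjusted p = 0.00201). Its dimmer probe read 85.0, 88.7 and 58.1 in ND and 109, 118 and 191 in HFD24. The groups did not overlap there either, but the difference was only 2.28-fold (log2 1.19 ± 0.31, limma adjusted p = 0.0195). On all 3 ND arrays the dimmer probe was dim (in the dimmest 25% of probes of its array). The probes agree in direction but not in size, and the reason was not tested.

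The brighter probe of Cd63 read 3109.5, 3116 and 3996 in ND and 20321, 25652 and 27359.9 in HFD24. It rose 7.37-fold (log2 2.88 ± 0.36) with the smallest limma adjusted p of the members, 5.02e-04. The dimmer Cd63 probe read 65.9, 103 and 164 in ND and 91.2, 101 and 94.9 in HFD24, with all HFD24 arrays inside the range of the ND arrays. Its difference was log2 0.24 (95% interval -0.53 to 1.00, limma adjusted p = 0.686), so the probes of Cd63 disagree. Cd68, the macrosialin of lysosomes, read 445, 532 and 447 in ND and 4049.6, 3708 and 2874 in HFD24. It rose 7.78-fold with no overlap of the groups (log2 2.96 ± 0.44, limma adjusted p = 0.00131).

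Cd9, the other tetraspanin, moved far less. It read 1408, 1618 and 1219.9 in ND and 1757, 2222 and 3357 in HFD24, a 1.68-fold rise (log2 0.75 ± 0.22, limma adjusted p = 0.0371), and the nearest arrays of the groups were close together. Itgax read 48.3, 51.7 and 77.9 in ND and 142, 187 and 137.6 in HFD24. It rose 3.39-fold (log2 1.76 ± 0.32, limma adjusted p = 0.00327), and its probe was dim on the first 2 ND arrays.

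Lgals3 read 956, 873 and 493 in ND and 472, 737 and 784 in HFD24, and the groups overlapped over most of their range. Its difference was log2 -0.11 (95% interval -0.55 to 0.33, limma adjusted p = 0.744). Lpl read 52.7, 43.1 and 45.7 in ND and 11.4, 15.7 and 28.2 in HFD24, where it was 1.97-fold lower (log2 -0.98 ± 0.29, limma adjusted p = 0.0375). It was the only member called lower, and its probe was dim on every one of the 12 arrays.

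Leaving out each ND or HFD24 array in turn kept 6 to 7 of the 9 calls. Trem2, Tyrobp, Cd68, Itgax, the brighter Gpnmb probe and the brighter Cd63 probe kept theirs in all 6 fits, while Cd9 and Lpl kept theirs in 1 of 6 and the dimmer Gpnmb probe in 2 of 6. With the step of each array as a covariate, only the brighter Cd63 probe stayed called (log2 2.24, limma adjusted p = 0.0315; 3.9e-05 to 0.0315 over its alternatives), and the 9 probes kept a median of 69.2% of their log2 size, while ND had the largest mean step, so that step and diet cannot be told apart.

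At 16 weeks the members differed less evenly from the normal diet. The only ND group was fed for 24 weeks and was older, so diet and age cannot be told apart in this comparison. Called higher were 4 of 11 probes, against 8.64% of all probes, and none was called lower, against 7.69%. They were Tyrobp (6.79-fold, log2 2.76 ± 0.53, limma adjusted p = 0.00592), Cd68 (4.48-fold, log2 2.16 ± 0.44, adjusted p = 0.00828), the brighter Cd63 probe (3.13-fold, log2 1.65 ± 0.36, adjusted p = 0.01) and the brighter Gpnmb probe (7.20-fold, log2 2.85 ± 0.89, adjusted p = 0.0447). At an unadjusted p under 0.05 there were 8 of 11 in either direction, but the share of all probes under that value was not counted. The median log2 difference was 0.87 over the member probes and -0.05 over all probes.

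The 3 HFD16 arrays were far apart. The brighter Gpnmb probe read 151, 4855 and 939 in deposited intensity, so that the first array lay at the level of ND and the second at that of HFD24. Trem2 read 291, 1885 and 608, with the same order. Its difference from ND was log2 1.47 ± 0.54 (limma adjusted p = 0.0775), and the lowest array overlapped ND on the deposited scale.

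Cd68 read 684, 4620.2 and 2418 and Tyrobp read 1499, 10175 and 5479, both above ND on all 3 arrays, with the second highest again. The brighter Cd63 probe read 6113, 16958 and 10995 and was likewise above ND throughout. Itgax read 56.2, 126.9 and 65.0 (log2 0.87 ± 0.32, limma adjusted p = 0.0805). Cd9 did not take part in this spread: it read 1909.7, 2065 and 1982, a 1.06-fold range after normalization, at log2 0.52 ± 0.22 above ND (limma adjusted p = 0.124).

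The second HFD16 array was the highest of its group for 8 of 11 member probes and the first the lowest for 7. The Gpnmb call rested on single arrays: without the first HFD16 array it was log2 4.01 (adjusted p = 0.00225), without the second 1.70 (adjusted p = 0.153), and over the 15 alternatives it was called in 6, with adjusted p from 0.00225 to 0.899. Trem2 was called without the first HFD16 array (log2 2.02, adjusted p = 0.019, from 0.019 to 0.984 over its alternatives). With the step as a covariate no member was called at 16 weeks.

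Among the remaining probes at 16 weeks, the dimmer Gpnmb probe read 51.0, 154 and 70.2, the dimmer Cd63 probe 97.8, 58.1 and 84.9, and Lgals3 571, 663 and 457. All 3 overlapped ND in deposited intensity, and their limma adjusted p-values were 0.248, 0.958 and 0.336. Lpl read 19.8, 27.0 and 12.6, below every ND array, with a log2 difference of -0.75 ± 0.29 that was not called (limma adjusted p = 0.0954).

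**Figure D2:**
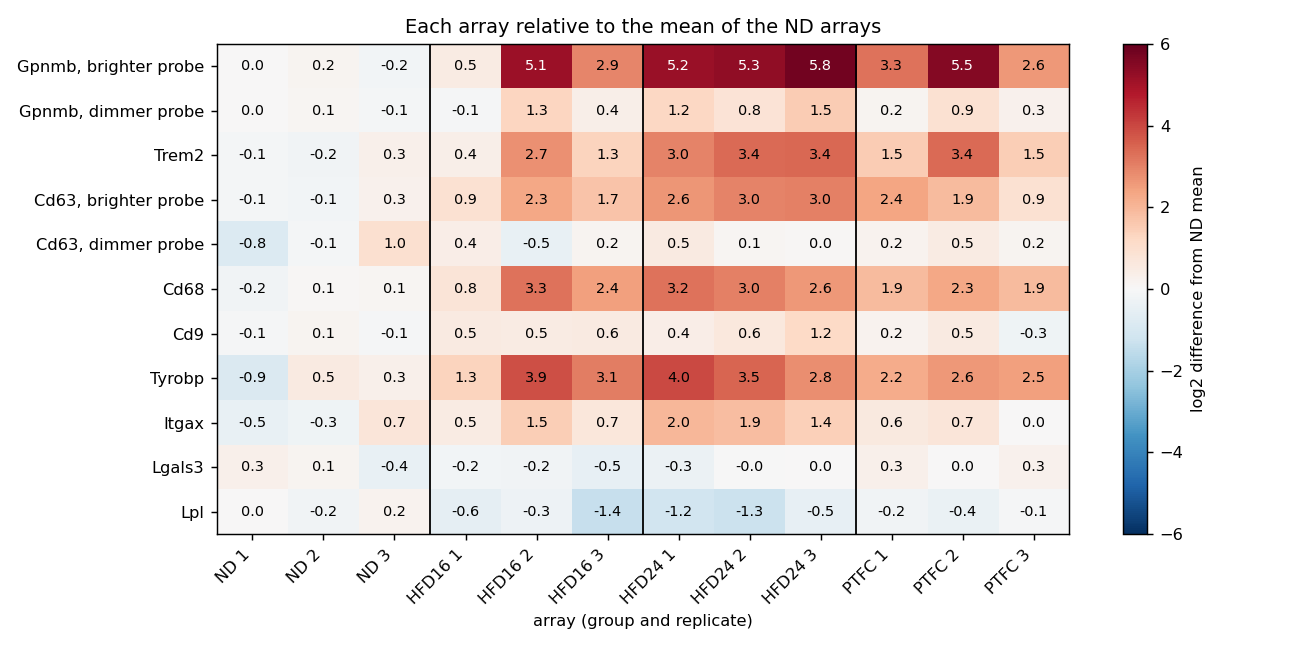
Log2 difference of each array from the ND mean for the 11 member probes (rows) on the 12 arrays (columns), after quantile normalization; the colour scale is in log2 units and the values are printed in the cells. The first HFD16 array is near ND for Gpnmb (0.49) and Trem2 (0.36), the second is near HFD24 (5.12 and 2.73), and the second PTFC array is at the HFD24 level for the same genes (5.52 and 3.40).

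Between 16 and 24 weeks of the high-fat diet no member probe was called in either direction, where 0.0114% of all probes were called higher and 0.0114% lower. By limma 4 of the 11, all higher at 24 weeks, had an unadjusted p under 0.05, for which no share of all probes was counted. They were the brighter Cd63 probe (log2 1.23 ± 0.36, adjusted p = 0.301), Trem2 (1.82 ± 0.54, adjusted p = 0.31), the brighter Gpnmb probe (2.57 ± 0.89, adjusted p = 0.381) and Itgax (0.89 ± 0.32, adjusted p = 0.404). The 95% interval for Gpnmb ran from 0.66 to 4.49, with an SE that the fit pools over all 4 groups.

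PTFC against HFD24 asks how the extract changed the members under the same feed at the same time. Of the 11 member probes, 1 was called lower, Itgax, where 2.71% of all probes were, and none higher, where 3.07% were. The PTFC arrays lay wholly below the HFD24 arrays for 4 of 11 probes, against 14.1% of all probes, and wholly above for 1, against 16.8%. The median log2 difference was -0.91 over the members and 0.02 over all probes. At an unadjusted p under 0.05 there were 5 of 11, again without a counted share of all probes.

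Itgax read 97.3, 95.9 and 65.9 with PTFC and 142, 187 and 137.6 without it. It was 2.48-fold lower (log2 -1.31 ± 0.32, limma adjusted p = 0.0363), with all PTFC arrays below all HFD24 arrays. Its probe was dim on the third PTFC array. The call was lost when any of the 6 arrays was left out (adjusted p 0.0537 to 0.177), and on the deposited scale the difference was -0.85 (adjusted p = 0.0759), with adjusted p from 0.0114 to 0.177 over its 15 alternatives.

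The brighter Cd63 probe read 17441, 13468 and 6629.6 with PTFC, each below the lowest HFD24 array, and its log2 difference was -1.15 ± 0.36 (95% interval -1.91 to -0.39, limma adjusted p = 0.0713). Cd68 read 1833, 2394 and 1836, also below every HFD24 array (log2 -0.91 ± 0.44, 95% interval -1.87 to 0.04, adjusted p = 0.228). Tyrobp read 3112, 4193 and 3725 against a lowest HFD24 array of 4696 (log2 -0.99 ± 0.53, 95% interval -2.14 to 0.15, adjusted p = 0.271). In these 3 genes every PTFC array lay above ND and below HFD24, and the differences from HFD24 did not pass the test. Over 15 alternatives the brighter Cd63 probe was called in 3 (limma adjusted p 0.0307 to 0.297). Cd68 was called in 1 (0.0313 to 0.464) and Tyrobp in 0 (0.0501 to 0.544).

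For Gpnmb and Trem2 the second PTFC array read as high as HFD24. The brighter Gpnmb probe read 1377, 6427 and 917 (log2 -1.63 ± 0.89, 95% interval -3.55 to 0.29, limma adjusted p = 0.284). Trem2 read 902, 3007 and 868 (log2 -1.15 ± 0.54, 95% interval -2.31 to 0.01, adjusted p = 0.21). On that second array Gpnmb stood 5.52 and Trem2 3.40 log2 above the ND mean, while on the other 2 arrays Gpnmb stood at 3.27 and 2.59 and Trem2 at 1.55 and 1.47. Without it the differences from HFD24 were -2.50 for Gpnmb (adjusted p = 0.123, from 0.117 to 0.655 over its alternatives) and -1.78 for Trem2 (adjusted p = 0.0674, from 0.0674 to 0.543), neither called.

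The second PTFC array was the highest of its group for 8 of 11 member probes. For Cd63 (brighter probe) it was not, since the first PTFC array was. Cd9 read 1758, 2158 and 1307 with PTFC, overlapping HFD24 (log2 -0.59 ± 0.22, limma adjusted p = 0.129, from 0.0411 to 0.451 over its alternatives). The dimmer Gpnmb probe read 96.4, 145 and 105 (log2 -0.74 ± 0.31, adjusted p = 0.158, from 0.0406 to 0.65 over its alternatives).

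Lpl read 44.9, 34.2 and 48.4 with PTFC, above every HFD24 array and overlapping ND. The log2 difference from HFD24 was 0.75 ± 0.29 (95% interval 0.12 to 1.38, limma adjusted p = 0.138), and on the deposited scale it was the one member called (1.24, adjusted p = 0.0354, up to 0.359 over its alternatives). Lgals3 read 1019, 806 and 1010.4 and the dimmer Cd63 probe 137, 149.8 and 135, both above HFD24 in deposited intensity but overlapping it after quantile normalization (adjusted p = 0.401 and 0.942). The median of all probes moved by 0.30 between these groups on the deposited scale and by 0.02 after normalization.

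**Figure D3:**
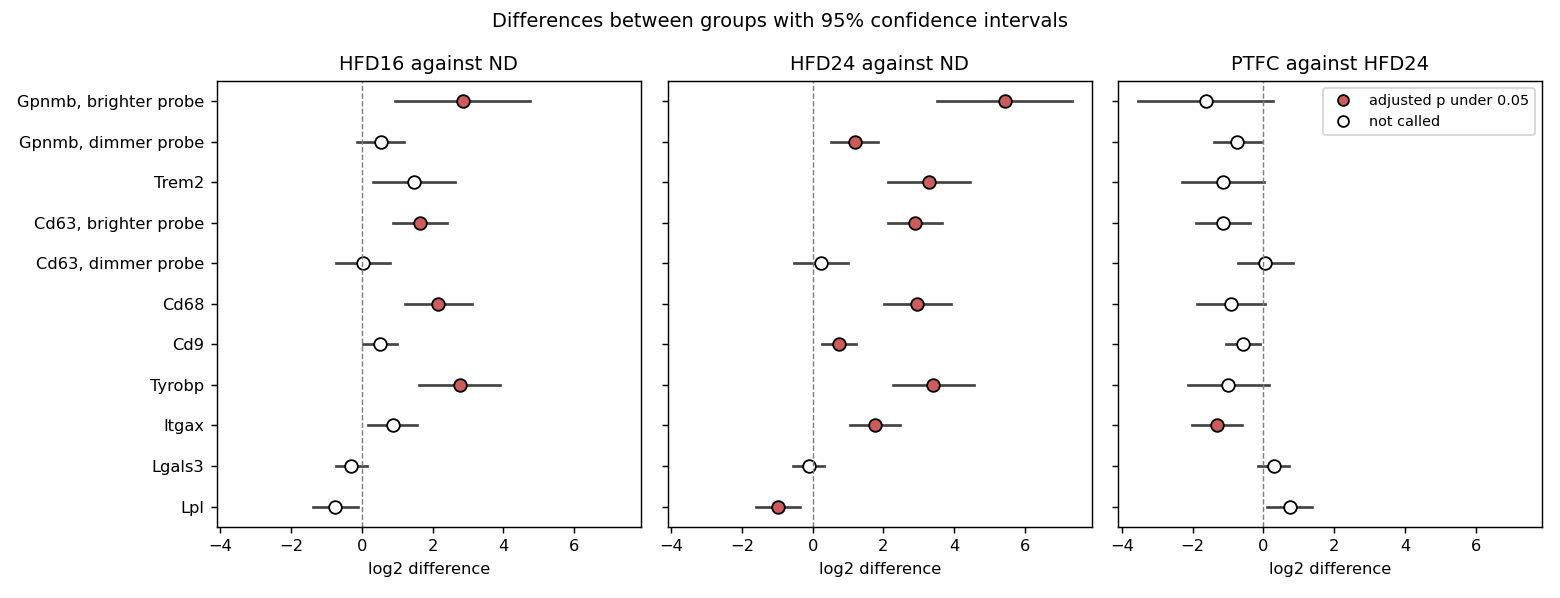
Log2 differences with 95% intervals of the 11 member probes in HFD24 against ND, HFD16 against ND and PTFC against HFD24 (one panel each), from limma on quantile-normalized log2(intensity + 1), n = 3 per group; filled points are called at an adjusted p under 0.05. In the panel of HFD24 against ND 9 points are filled, in that of HFD16 against ND 4, and in that of PTFC against HFD24 only Itgax.

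Against ND, the PTFC group had 4 of 11 probes called higher, where 0.727% of all probes were, and none lower, where 1.03% were. They were the brighter Gpnmb probe (13.8-fold, log2 3.79 ± 0.89, limma adjusted p = 0.0498), Tyrobp (5.35-fold, log2 2.42 ± 0.53, adjusted p = 0.0374), Cd68 (4.13-fold, log2 2.05 ± 0.44, adjusted p = 0.0354) and the brighter Cd63 probe (3.32-fold, log2 1.73 ± 0.36, adjusted p = 0.0304). Trem2 missed the threshold (log2 2.14 ± 0.54, adjusted p = 0.0639), and Itgax (0.45 ± 0.32, adjusted p = 0.577) and Cd9 (0.16 ± 0.22, adjusted p = 0.827) were further from it. These calls were close to the threshold: 0 to 1 of the 4 was left when any ND or PTFC array was removed. With the step as a covariate none was called, and the differences were 1.48 for Gpnmb (adjusted p = 0.642), 1.32 for Tyrobp (adjusted p = 0.506), 1.17 for Cd68 (adjusted p = 0.488) and 1.04 for Cd63 (adjusted p = 0.432), the highest adjusted p of each over its 15 alternatives. The comparisons of HFD16, HFD24 and PTFC with ND share the ND arrays. HFD24 against ND, HFD24 against HFD16 and PTFC against HFD24 share the HFD24 arrays.

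Kupffer cell and monocyte markers rose along with the members in HFD24 against ND. Of 12 Kupffer cell markers, 11 rose in HFD24 against ND, among them the complement gene C1qc (log2 2.72 ± 0.47, limma adjusted p = 0.00255) and the folate receptor Folr2 (1.60 ± 0.25, adjusted p = 0.00165), and none was called in PTFC against HFD24. Their summed linear intensity ran over the arrays from 26893 to 66114 in ND, 66236 to 261235 in HFD16, 165731 to 263168 in HFD24 and 110041 to 132474 in PTFC. All 7 measured monocyte markers rose in HFD24 (7 of 9 listed had a probe), and 3 of the 7 fell with PTFC: S100a4, a calcium-binding protein (log2 -2.72 ± 0.49, limma adjusted p = 0.0168), Cx3cr1, the fractalkine receptor (-1.75 ± 0.44, adjusted p = 0.0376), and Cd14, the endotoxin co-receptor (-1.43 ± 0.35, adjusted p = 0.0372). The monocyte sum was 2687 to 3984 in ND, 4040 to 20306 in HFD16, 14248 to 20918 in HFD24 and 4456 to 6151 in PTFC. With the step as a covariate, a setting added for the lists after the data were seen, none of the 12 Kupffer cell markers and none of the 7 monocyte markers was called in HFD24 against ND (median log2 1.59 instead of 2.40, and 2.09 instead of 3.08). Over the 20 lists 7 of 182 list genes were then called in that comparison, where 1.3% of all probes were. In PTFC against HFD24 the step took the monocyte markers called lower from 3 to 5 of 7, with 8.38% of all probes called in either direction. In whole liver, fewer cells of a type and less RNA per cell cannot be told apart, and the part of cell number in the members' differences was not tested.

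Other cells that use some of the members gave other values. Dendritic cell markers, which belong with Itgax, were called higher for 4 of 6 in HFD24 and lower for 2 of 6 with PTFC, Flt3 (log2 -1.51 ± 0.34, limma adjusted p = 0.029) and Ccr7 (-1.20 ± 0.28, adjusted p = 0.0307). Cholangiocyte markers, whose cells also make Cd9 and osteopontin, were called higher for 0 of 7 and lower for 2 in HFD24, with sums of 3979 to 4345 in ND and 2826 to 3360 in HFD24. Melanocyte markers, whose cells make Gpnmb, were called higher for 0 of 5 and lower for 2 (sums of 3450 to 4234 in ND and 1106 to 1229 in HFD24, with 66.6 to 71.2% of the ND sums from Dct).

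Adipocyte and skeletal muscle markers, from tissues rich in Lpl, were called higher for 0 of 5 and 0 of 6 in HFD24, and 1 adipocyte marker was called lower. The adipocyte sum was at least 95.8% Plin4 on every ND and HFD24 array, and the other 4 markers summed to 718 to 1024 in ND and 601 to 658 in HFD24. The muscle sum was 722 to 932 in ND and 542 to 698 in HFD24. HFD16 replicate 3 stood apart with a muscle sum of 8393. Its adipocyte markers other than Plin4 summed to 3690, against 676 and 514 on the other HFD16 arrays. Lpl on that array was the lowest of its group, on a probe that was dim on every array. The first HFD16 array, lowest for most members, had the highest dendritic sum, 12726, but Xcr1 alone made up 89.9% of it, and the other 5 dendritic markers summed to 1286. Neutrophil markers were called higher for 4 of 9, T, NK and B cell markers for 3 of 8 with 1 lower, stellate cell markers for 4 of 7 with 1 lower, and endothelial markers for 4 of 6. Of 6 hepatocyte markers, 1 was called lower in HFD24 against ND. In PTFC against HFD24 the counts called higher and lower were 0 and 1 for neutrophils, 1 and 2 for T, NK and B cells, 0 and 2 for stellate cells, 1 and 1 for cholangiocytes, 1 and 0 for adipocytes and 2 and 0 for melanocytes, and no endothelial, muscle or hepatocyte marker was called.

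**Figure D4:**
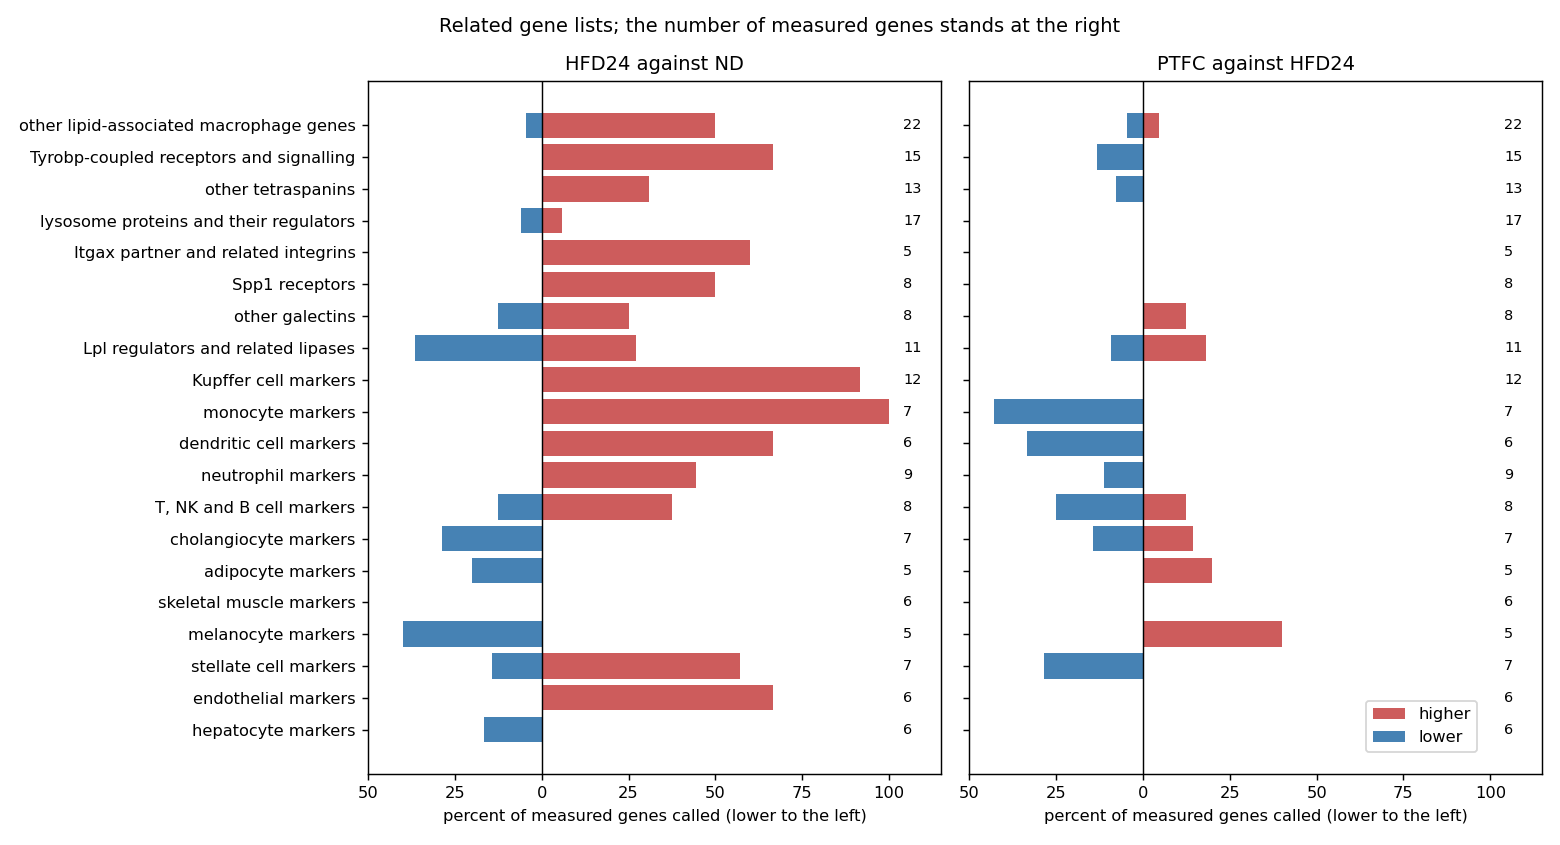
Share of the measured genes in each of 20 gene lists that was called higher or lower (percent, limma adjusted p under 0.05), in HFD24 against ND on the left and in PTFC against HFD24 on the right, with the number measured beside each list. Monocyte and Kupffer cell markers have the highest shares called higher in HFD24, 7 of 7 and 11 of 12, and the lysosome list has 1 of 17.

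Among 22 other genes of the lipid-associated macrophage state, all measured, 11 rose and 1 fell in HFD24 against ND, with a median log2 difference of 0.67 against -0.06 over all genes. Risers included Anxa2, an annexin (log2 2.70 ± 0.24, limma adjusted p = 8.15e-05), Capg, which caps actin (3.32 ± 0.50, adjusted p = 0.00133), the intermediate filament Vim (2.80 ± 0.44, adjusted p = 0.0016) and Clec7a, a receptor for fungal glucans (3.84 ± 0.63, adjusted p = 0.00192). Cd36, the scavenger receptor for fatty acids, fell (log2 -1.09 ± 0.19, adjusted p = 0.00269). Of the 10 that were not called, Fabp4 and Fabp5, fatty acid binding proteins, had differences of 1.19 (adjusted p = 0.055) and 1.12 (adjusted p = 0.0741), and Apoe, which hepatocytes also make, had one of 0.04 (adjusted p = 0.896). With PTFC 1 of the 22 rose, Cd36 (log2 1.00 ± 0.19, adjusted p = 0.0187), and 1 fell, Anxa2 (-1.03 ± 0.24, adjusted p = 0.0301). With the step as a covariate Anxa2 was the only one of the 22 called in HFD24 against ND.

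Of 15 listed genes for Tyrobp-coupled or related receptors, sister adaptors and signalling proteins, 10 rose and none fell in HFD24 (median log2 1.56). Among them were Syk, the kinase that Tyrobp recruits (2.43 ± 0.40, limma adjusted p = 0.00212), Btk (2.01 ± 0.31, adjusted p = 0.00144), Inpp5d, the phosphatase SHIP1 (1.94 ± 0.30, adjusted p = 0.0015), and Cd300lb, another receptor that uses Tyrobp (2.49 ± 0.44, adjusted p = 0.0027). Fcer1g, a sister adaptor of Tyrobp, had a difference of 2.31 ± 0.48 (adjusted p = 0.00668). Trem1, a related receptor of neutrophils and monocytes, had one of -0.01 (adjusted p = 0.983), and Trem3 one of 1.48 (adjusted p = 0.00573). With PTFC 2 of the 15 fell, Lat2, a membrane adaptor (-1.48 ± 0.34, adjusted p = 0.0293), and Inpp5d (-1.18 ± 0.30, adjusted p = 0.0399), and the median was -0.99 against 0.01 over all genes. With the step as a covariate none of the 15 was called in HFD24 against ND (median log2 0.99), and 6 were called lower with PTFC.

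Of 13 measured tetraspanins other than Cd63 and Cd9, 4 rose and none fell in HFD24 (median log2 0.20). They were Cd53, of white blood cells (2.70 ± 0.50, limma adjusted p = 0.00364), Tspan3 (1.20 ± 0.21, adjusted p = 0.00251), Tspan14 (0.83 ± 0.20, adjusted p = 0.0124) and Cd81 (0.54 ± 0.15, adjusted p = 0.0298). Tspan3 also fell with PTFC (-0.89 ± 0.21, adjusted p = 0.0303). Of 17 measured lysosome proteins and regulators, the compartment of Cd68 and Cd63, 1 rose in HFD24, Npc2, which binds cholesterol (0.87 ± 0.18, adjusted p = 0.00603), and 1 fell, Ctsa (-0.74 ± 0.22, adjusted p = 0.0366). These shares are near those of all probes given above, and none of the 17 was called with PTFC.

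Itgb2, the beta chain that pairs with Itgax, rose in HFD24 (log2 3.27 ± 0.60, limma adjusted p = 0.00324), as did its ligand Icam1 (1.99 ± 0.35, adjusted p = 0.00271) and the CD11b chain Itgam (0.82 ± 0.25, adjusted p = 0.04). These were 3 of the 5 genes on that list, and none of the 5 was called with PTFC (Itgb2 -1.46, adjusted p = 0.152). Although Spp1 itself was not measured, 4 of 8 genes for its receptors rose in HFD24, Itga9 (1.49 ± 0.25, adjusted p = 0.00225), Itga4 (2.81 ± 0.48, adjusted p = 0.00232), Cd44 (3.11 ± 0.53, adjusted p = 0.00241) and Itgb5 (0.62 ± 0.14, adjusted p = 0.0111), and none was called with PTFC. Of 8 other galectins, Lgals1 (1.50 ± 0.31, adjusted p = 0.00629), which the first list also holds, and Lgals3bp (0.72 ± 0.19, adjusted p = 0.0228) rose in HFD24. Lgals4 fell in HFD24 (-1.01 ± 0.26, adjusted p = 0.0181) and rose with PTFC (0.95 ± 0.26, adjusted p = 0.0468).

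Of 11 measured regulators of Lpl and related lipases, 3 rose and 4 fell in HFD24. Gpihbp1, which anchors Lpl to capillaries, rose (log2 1.25 ± 0.27, limma adjusted p = 0.00813), as did Lipe, hormone-sensitive lipase (1.50 ± 0.22, adjusted p = 0.00117), and Apoc2, the activator of Lpl (0.47 ± 0.13, adjusted p = 0.0253). Angptl4, an inhibitor of Lpl, fell (-0.52 ± 0.15, adjusted p = 0.0352), and so did Pnpla2, adipose triglyceride lipase (-0.72 ± 0.17, adjusted p = 0.0137). Lipg (-0.69 ± 0.19, adjusted p = 0.0274) and Apoa5 (-0.62 ± 0.18, adjusted p = 0.0309) fell as well. The Lipe probe was dim on 2 of the 3 ND arrays. With PTFC 2 rose, Pnpla2 (0.80 ± 0.17, adjusted p = 0.0248) and Angptl4 (0.61 ± 0.15, adjusted p = 0.0401), and Lipe fell (-1.02 ± 0.22, adjusted p = 0.0245).

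The genes outside the members whose pattern over the 12 arrays came closest to that of a member were found by the root mean square log2 difference after each gene was centred, among 17144 genes. The other members and predicted or unnamed transcripts were left out of that search, so members that lie closer than the genes named here are not shown. Nearest to Trem2, whose own spread by that measure was 1.37, were Cpxm1 (0.51), Cx3cr1 (0.54), Ccl6 (0.60), Vcam1 (0.61) and Tmem86a (0.61). Nearest to the brighter Gpnmb probe, with a spread of 2.28, were Lcn2 (0.87), Cdk5r1 (1.02), Pla2g7 (1.02), Timp1 (1.09) and Clec7a (1.13). The points share arrays, groups and normalization, and nothing about function follows from the order.

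By group mean, Trem2 stood at 8.09 ± 0.29 (SD, n = 3) in ND, 9.56 ± 1.19 in HFD16, 10.23 ± 1.09 in PTFC and 11.38 ± 0.25 in HFD24 in quantile-normalized log2 level. The brighter Gpnmb probe followed the same order, at 7.05 ± 0.18, 9.90 ± 2.31, 10.84 ± 1.53 and 12.48 ± 0.31. Cd68 and Tyrobp placed PTFC below HFD16, at 8.84 ± 0.18 in ND, 10.89 ± 0.23 in PTFC, 11.00 ± 1.27 in HFD16 and 11.80 ± 0.34 in HFD24 for Cd68, and 9.36 ± 0.75, 11.78 ± 0.18, 12.13 ± 1.31 and 12.78 ± 0.59 for Tyrobp. For all 4 genes the PTFC and HFD16 means lay within the SD of the HFD16 arrays, so the order of those neighbours is not resolved. The SD was largest in HFD16 for each of these probes. The brighter Cd63 probe stood at 11.73 ± 0.23 in ND, 13.38 ± 0.70 in HFD16, 13.46 ± 0.73 in PTFC and 14.61 ± 0.21 in HFD24, again with HFD16 and PTFC not separated. Itgax placed PTFC next to ND, at 5.67 ± 0.63 in ND, 6.12 ± 0.37 in PTFC, 6.55 ± 0.51 in HFD16 and 7.44 ± 0.28 in HFD24, and the lower 3 were neighbours within their SDs. Lpl ran the other way, at 5.36 ± 0.22 in ND, 5.13 ± 0.16 in PTFC, 4.61 ± 0.58 in HFD16 and 4.38 ± 0.43 in HFD24.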

How the data were processed

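Liver RNA of 12 mouse samples was hybridised to single-colour arrays. Per the labels' protocols, RNA was extracted with Trizol, amplified and labelled with Cy5. The values the authors deposited are linear intensity values for 26423 probes per array. Not given in the sources used here are the handling of background, scaling, spots and detection. Among 317076 values, 291 were below 0 and 133 were 0. Gene names came from the platform's annotation (21876 probes with a symbol, 4547 unnamed), and promoters and gene positions from RefSeq (GRCm38.p6).

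Values below 0 were set to 0, and log2(intensity + 1) was quantile normalized over the 12 arrays. Every probe was fitted by itself with limma 3.58.1 in R 4.3.3 (group means of all 12 arrays, eBayes with a trend, no replicate block) and 5 contrasts were taken. Tests were two-sided, adjusted by Benjamini-Hochberg over all probes and called under 0.05. Fits were tested on simulated data. Precision is limited by the 3 arrays of each group. Lists were described by counts and medians of the highest-mean probe of each gene. The rule for names took all members and the genes of smallest p in each of 20 lists (up to 4 for HFD24 against ND and up to 3 for PTFC against HFD24). It also took the 5 genes outside the members nearest in pattern to Trem2, and likewise 5 for Gpnmb. Not every list gene that the rule took is named. Apoa5, Apoe, Fabp4, Fabp5, Fcer1g, Lipg, Trem1, Trem3 and Xcr1 were named outside it, after their values were seen. The members and the lists were chosen with earlier results of these data known. Alternatives were another or no normalization, a pseudocount of 32, leaving out the dimmest 25% of probes, 1 probe per gene, no trend, fits of 2 groups, the replicate number as a block, each array's step as a covariate and leaving out each array in turn.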

Additional observations from a re-analysis of the deposited data

How the results depend on the processing

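Of 810 alternative values of single member probes, 714 kept their side of the threshold, 80 lost and 16 gained a call, and no called value changed sign. Among uncalled values 23 changed sign. The count of member probes called fell from 9 to 1 in HFD24 against ND and from 4 to 0 in HFD16 against ND with the step as a covariate. In PTFC against HFD24 it went from 1 to 3 under median centring, in a fit of the 2 groups and with the step as a covariate, and to 0 with the replicate number as a block. In PTFC against ND it went from 4 to 1 under median centring, 2 without the trend and 0 with the step. Without single arrays the counts were 6 to 7, 3 to 5, 0 in every fit, and 0 to 1 in these comparisons, and 0 in HFD24 against HFD16 in every fit. Over all probes, calls went from 4348 (HFD24 against ND) to 343 with the step and 1981 to 6486 without single arrays; from 4316 (HFD16 against ND) to 59 and 1436 to 5896; from 1528 (PTFC against HFD24) to 3101 on the deposited scale, 611 with the block and 8 to 707 without single arrays; and from 463 (PTFC against ND) to 25 with the step, 255 under median centring, 289 with the block and 56 to 632. In HFD24 against HFD16, 6 probes were called, 2 on the deposited scale or under median centring, 3 without the trend, 0 in a fit of the 2 groups and 3 to 11 without single arrays. The share of calls that were higher was 51.7% in HFD24 against ND but 35.6% on the deposited scale, 52.9% but 28.7% in HFD16 against ND, 53.1% but 92.4% in PTFC against HFD24, and 41.5% but 67.4% (29% under median centring) in PTFC against ND. The cause of these moves was not tested. Deviations of same-numbered arrays from their group means correlated at r -0.287 to 0.14 over 18 pairs, 3 of them over 0.1. With 3 arrays per group this cannot settle whether the numbers pair the arrays, and the labels state no pairing. With the block, 7 of the 9, 5 instead of 4, and 5 instead of 4 members were called in HFD24, HFD16 and PTFC against ND. Dim probes limit Lpl, Itgax and the dimmer probes of Gpnmb and Cd63.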
